A study of Xenopus tropicalis with 6 samples.

Results

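The genes described here make, bind, sense and remove retinoic acid, and they were taken by exact symbol from a gene-level expression table of *Xenopus tropicalis* neurulae. The table lists 23634 genes and holds each of the 10 symbols, which also occur in a RefSeq gene table as protein-coding genes. They are the retinal dehydrogenases *aldh1a2* and *aldh1a3*, the retinal reductase *dhrs3*, the binding protein *crabp2*, the hydroxylases *cyp26a1*, *cyp26b1* and *cyp26c1*, and the receptors *rara*, *rarb* and *rarg*.

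Whole embryos of the Nigerian strain were collected at Stage 16, the midneurula stage. In 3 samples, called morphants, the embryos had received 10 ng of a mixture of *n1-src* splice-blocking morpholinos. Siblings in the other 3 samples, called controls, had received 10 ng of a standard control morpholino. The *n1-src* morpholinos are antisense oligos. They block the inclusion of the microexon that turns *c-src* into the neural kinase isoform *n1-src*, in every tissue that inherits them. The number of embryos in a sample, and whether replicates 1 to 3 came from separate clutches, is not given in the sources used here, so the tests measure the spread between these samples.

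Retinoic acid is made from vitamin A in the embryo. Retinol is oxidized to retinal, and retinal is oxidized to retinoic acid, which diffuses into neighbouring cells and is destroyed there by CYP26 enzymes. In the nucleus it binds RAR receptors, which pair with RXR receptors on DNA and switch on genes such as the *hox* genes at the 3′ ends of their clusters. In frog neurulae, *aldh1a2* is transcribed in the trunk mesoderm, and *cyp26a1* is transcribed in the anterior neural plate and around the blastopore. The head is thereby kept low and the trunk high in retinoic acid, which patterns the hindbrain and spinal cord.

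Expression was given as TPM, the abundance of a gene's transcripts corrected for their length and set relative to all transcripts of the sample. The paper gives an approximate number of reads per sample, but how many stand behind the TPM of a gene is unknown. No counting interval could be given. Of all genes, 13382 had a mean of at least 1 TPM in morphants or controls and were tested with limma on log2(TPM + 0.5), with samples of the same replicate number treated as a set. A gene was called when its adjusted p, corrected over all genes tested, was at most 0.05. Fold changes on this scale understate the change of genes with low TPM. In bulk RNA of whole embryos, fewer cells of a type and less RNA per cell cannot be told apart. The targeted gene *src*, summed over its isoforms, was at 15.6, 17.3 and 34.6 TPM in morphants and at 18.7, 25.8 and 49.2 TPM in controls. It was lower in morphants in each set (log2 fold change -0.44, standard error 0.084, limma, adjusted p = 0.0398), a call that was lost under 8 of 12 alternative settings.

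Only *cyp26a1* of the 10 genes was called. It was higher in morphants, at 121% of the control mean. None of the 10 was called lower by limma, although *dhrs3*, *cyp26c1*, *rarb* and *rarg* were lower with an unadjusted p under 0.05. Without the pairing of replicates, 1 gene of all those tested was called (0.00747%), and it was none of the genes named here. The filter passed 9 genes, so 1 of 9, or 11.1%, was called, against 8.49% of all genes tested in either direction and 2.62% in the higher direction. The share called is thus near that of all genes. Of all genes, 350 were called higher and 786 lower, or 569 higher and 415 lower when samples were scaled to the same median. Of all genes tested, 23.4% were lower and 9.76% higher with an unadjusted p under 0.05. The log2 fold change was negative in 8 of the 9 genes, and in 62.3% of all genes tested. The median log2 fold change of the 9 genes was -0.16, against -0.068 over all genes tested. After median scaling, *cyp26b1*, *crabp2* and *rara* turned positive, and the median over all genes tested was 0.026. The remaining gene, *aldh1a3*, did not reach 1 TPM in any sample. *rarb* passed the filter through its control mean alone.

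**Figure D1:**
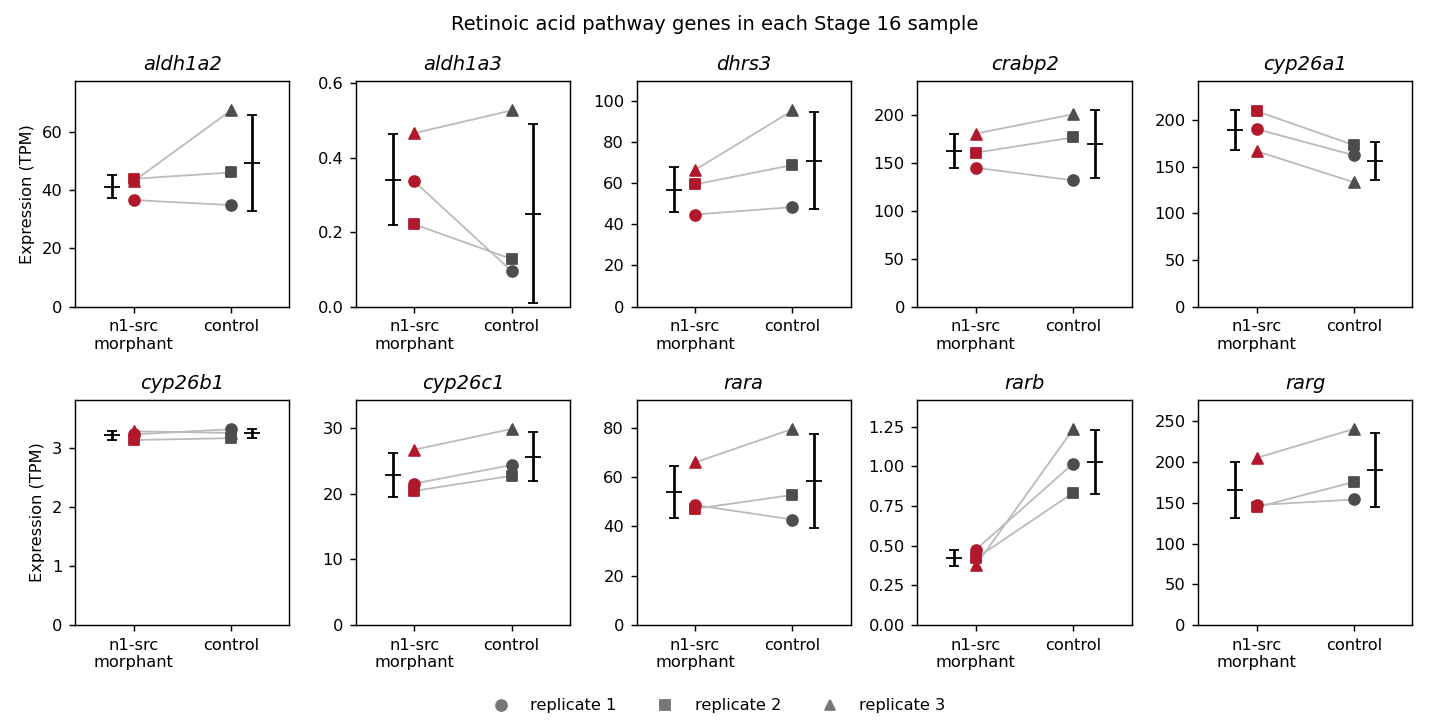
Expression in TPM of the 10 genes in each sample, with morphants in red on the left and controls in grey on the right of each panel. Grey lines join samples of the same replicate number, and bars beside the points give the mean and SD of 3 samples. The *cyp26a1* lines all slope down towards controls, and the *rarb* points of the groups do not overlap.

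Among the retinal dehydrogenase transcripts nearly all were *aldh1a2*, which encodes the main enzyme of this kind in early vertebrate embryos. It made up 98.8 to 99.5% of the summed TPM of *aldh1a1*, *aldh1a2* and *aldh1a3* in morphants and 99.2 to 99.7% in controls. *aldh1a2* was at 36.6, 43.9 and 43.0 TPM in morphants and at 34.8, 46.0 and 67.3 TPM in controls. The third control sample stood above the other 5, and the groups overlapped. Within sets the change was 0.069, -0.069 and -0.64 on the log2 scale, so the fold change of -0.21 rested on set 3. Its 95% interval ran from -0.56 to 0.13, and limma gave an adjusted p of 0.328. With replicate 3 left out, the fold change was 8.18e-05.

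*aldh1a3*, which makes retinoic acid mainly in the eye and nose region of vertebrates, was listed at 0.336, 0.221 and 0.466 TPM in morphants and at 0.0952, 0.128 and 0.527 TPM in controls. The groups overlapped, and such low levels allow no statement about a change. In a fit without the filter its log2 fold change was 0.20 (95% interval -0.15 to 0.55, limma, adjusted p = 0.432).

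*dhrs3* encodes the enzyme that turns retinal back into retinol and so lowers the supply for synthesis. Its own transcription is raised by retinoic acid in frog embryos, but retinoic acid was not measured here. *dhrs3* was at 44.7, 59.4 and 66.4 TPM in morphants and at 48.3, 68.8 and 95.4 TPM in controls. Every morphant sample was below the control of its own set, by -0.11, -0.21 and -0.52 on the log2 scale, but the groups overlapped because the sets differed more than the treatments. The log2 fold change of -0.28 (standard error 0.091) did not pass the threshold (limma, adjusted p = 0.0992). Over all genes tested, 38.5% were lower in morphants in all 3 sets.

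*crabp2*, which carries retinoic acid to its nuclear receptors, was one of the most abundant of the 10 transcripts. It was at 145, 160.3 and 180.2 TPM in morphants and at 131, 176 and 200.4 TPM in controls. The groups overlapped throughout. The log2 fold change was -0.051, with a 95% interval of -0.24 to 0.14 and an adjusted p of 0.672 from limma, and it was 0.050 after median scaling of the samples. Its relative *crabp1* was listed at a mean of 0.0159 TPM in morphants and 0.0228 TPM in controls.

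Among the genes of the breakdown enzymes, only *cyp26a1* was called. *cyp26a1* was at 191, 209.8 and 167 TPM in morphants and at 162, 173 and 133 TPM in controls. The means were 189 ± 21.5 TPM in morphants and 156 ± 20.6 TPM in controls (SD, n = 3 each). The ranges overlapped between the lowest morphant sample and the highest control sample. Within sets, each morphant sample was above its control, by 0.23, 0.28 and 0.32 on the log2 scale. Of all genes tested, 17.6% were higher in all 3 sets. The log2 fold change of *cyp26a1* was 0.28 (standard error 0.055, 95% interval 0.14 to 0.41, limma, adjusted p = 0.0415). Without the pairing of replicates the standard error was 0.14 and the adjusted p 0.660 from limma. The fold change stayed between 0.25 and 0.38 under every alternative tried, but the call was lost with replicate 2 left out (adjusted p = 0.174 from limma) and with replicate 3 left out (0.132), fits in which 283 and 107 genes were called in all.

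*cyp26c1*, which lies next to *cyp26a1* on chromosome 7 of the UCB_Xtro_10.0 assembly with 0 listed genes between them, was at 21.5, 20.4 and 26.7 TPM in morphants. In controls it was at 24.3, 22.7 and 29.8 TPM. The groups overlapped, while the change within sets was nearly constant, at -0.17, -0.15 and -0.16. The 95% interval was -0.32 to -0.0060, from a variance that limma moderates towards those of other genes, and the adjusted p was 0.140. *cyp26b1*, which breaks down retinoic acid in the hindbrain and limbs of vertebrates, was low and even. It was at 3.23, 3.13 and 3.28 TPM in morphants and at 3.31, 3.16 and 3.25 TPM in controls, with a log2 fold change of -0.012 (95% interval -0.26 to 0.24, limma, adjusted p = 0.943) that was positive, at 0.076, after median scaling.

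The change of *cyp26a1* exceeded that of *cyp26c1* by 0.40, 0.43 and 0.48 in the 3 sets, a mean of 0.44 ± 0.039 (SD, n = 3 sets). It exceeded that of *cyp26b1* by 0.26, 0.29 and 0.31, and that of *aldh1a2* by 0.16, 0.34 and 0.96. Each of these 3 differences had the same sign in every set. *cyp26a1* was the only tested gene of the group that was higher in every set, so this agreement in part repeats that. An exact two-sided sign-flip test over 3 sets gave p = 0.25 for each (0.25 after Benjamini-Hochberg adjustment over the 3 pairs). This is the smallest value that 3 sets allow, so the test could not tell the changes of these genes apart. *cyp26a1* made up 88.5, 89.9 and 84.8% of the summed TPM of the 3 hydroxylase genes in morphants, against 85.4, 87.0 and 80.1% in controls. The sum was 215, 233 and 197 TPM in morphants and 190.0, 199 and 166 TPM in controls. Transcripts of *cyp26a1* stood to those of *aldh1a2* as 5.21, 4.78 and 3.88 in morphants and as 4.66, 3.76 and 1.98 in controls. The ratio was higher in the morphant sample of each set, which restates the difference between these genes given above.

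**Figure D2:**
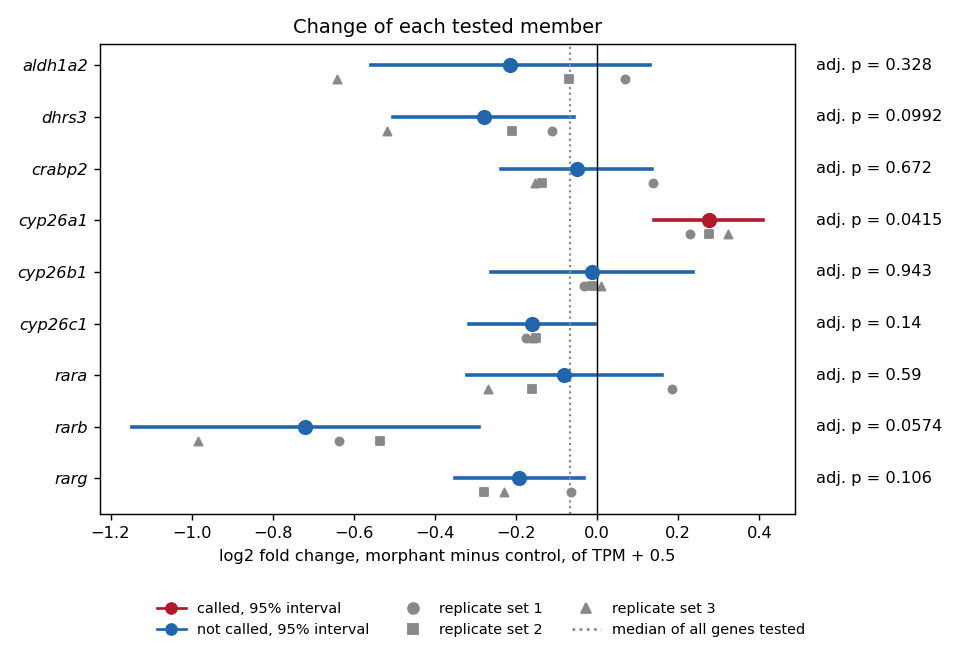
Log2 fold changes, morphant minus control, of the 9 genes tested, with 95% intervals from limma and the change within each replicate set below them in grey. The interval of *cyp26a1*, from 0.14 to 0.41, lies above 0, and the 3 sets of *aldh1a2* run from -0.64 to 0.069.

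Among the receptors, *rarg* supplied most of the transcripts and *rarb* almost none. *rarg* held 75.0 to 75.6% of the summed RAR TPM in morphants and 74.9 to 77.9% in controls, followed by *rara* at 24.3 to 24.8% in morphants and 21.6 to 24.7% in controls. *rarg* was at 147, 145 and 205 TPM in morphants and at 154, 176 and 241 TPM in controls. It was below its control in each set, by -0.065, -0.28 and -0.23, with overlapping groups. Its log2 fold change of -0.19 (95% interval -0.35 to -0.033) missed the threshold (limma, adjusted p = 0.106). *rara* was at 48.6, 47.1 and 65.9 TPM in morphants and at 42.7, 52.7 and 79.4 TPM in controls. The sets disagreed in sign, and the log2 fold change was -0.082 (95% interval -0.32 to 0.16, limma, adjusted p = 0.590), or 0.019 after median scaling.

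*rarb*, a receptor gene that retinoic acid itself induces in many vertebrate cells, was listed at 0.475, 0.419 and 0.376 TPM in morphants. In controls it was listed at 1.02, 0.833 and 1.23 TPM. The highest morphant value lay below the lowest control value, as for 11.3% of all genes tested. No other gene of the 10 had groups that did not overlap, and none had morphants wholly above controls, as 3.71% of all genes tested had. Its mean in morphants reached 41.2% of that in controls, a log2 fold change of -0.72 (standard error 0.17, limma, adjusted p = 0.0574). This did not pass the threshold, and the size depended on the pseudocount, with -1.10 at 0.1 TPM and -0.51 at 1 TPM. Its p also rests on a filter that it passed through its control mean alone. Without a filter its adjusted p was 0.0945 from limma, and without the mean-variance trend it was 0.0482. With replicate 3 left out, its control mean was under the filter and it was not tested. A difference in retinoic acid between the groups was not tested.

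The spread among controls was set beside the change in morphants. In 8 of the 9 genes tested, the range of log2 values among the 3 controls was larger than the change in morphants, *rarb* being the exception. The share of all genes for which this holds was not computed. A range of 3 values is also not the same measure as a mean change, so the count does not set these genes apart. The control range was 0.97 for *dhrs3*, 0.94 for *aldh1a2* and 0.89 for *rara*, against a median of 0.47 over all genes tested. It was larger than that of 86.3%, 85.3% and 83.1% of all genes. At the other end, the range of *cyp26b1* was 0.058, larger than that of 1.58% of genes. The third control had the highest of the 3 control values in 7 of the 9 genes tested, as in 46.2% of all genes tested, whereas for *cyp26a1* it had the lowest, as in 31.4% of all genes. *tbxt*, a marker of the blastopore and tail bud, also differed widely between sets, at 11.7, 28.9 and 44.5 TPM in morphants and 10.1, 25.6 and 47.1 TPM in controls. Its control range of 2.17 was the largest of its list. That of *fgf8* was 0.21, that of *wnt8a* 0.51 and that of *ventx2.1* 0.68, and these 3 genes were highest in set 2 in both groups. The part of embryo age or region in these differences was not tested.

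**Figure D3:**
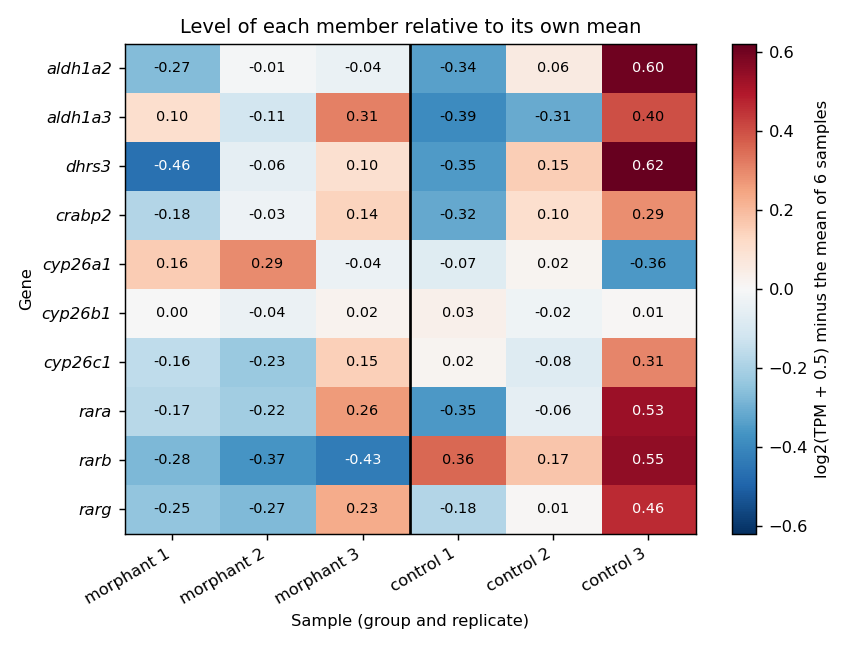
Heat map of log2(TPM + 0.5) of each gene minus its mean over the 6 samples, with morphants left of controls. The third control is high for most genes, at 0.60 for *aldh1a2* and 0.62 for *dhrs3*, and low for *cyp26a1*, at -0.36.

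Other genes of vitamin A handling were examined from a list of 38, of which the table holds 36 and 24 were tested. The call was made for 1 of them, or 4.17% against 8.49% of all genes tested, and their median log2 fold change of -0.077 was close to the -0.068 of all genes (0.0095 and 0.026 after median scaling). The called gene was *sdr16c5*, whose product oxidizes retinol to retinal, and it was higher in morphants. It was at 2.60, 3.80 and 4.42 TPM in morphants and at 1.66, 2.59 and 2.86 TPM in controls. The groups overlapped, but the change within sets was 0.52, 0.48 and 0.55, and the log2 fold change was 0.52 (standard error 0.11, limma, adjusted p = 0.0438). The call was lost whenever any replicate set was left out. No gene of this list was called lower by limma, whereas *rpe65*, *rdh10* and *ncoa3* were lower with an unadjusted p under 0.05.

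*rdh10*, which encodes the main retinol dehydrogenase of vertebrate embryos, was the most abundant oxidoreductase of the list. It was at 56.2, 75.9 and 91.3 TPM in morphants and at 60.0, 89.9 and 105.9 TPM in controls. Like *dhrs3*, it was below its control in each set and overlapped between groups (log2 fold change -0.18, limma, adjusted p = 0.104). *lrat*, which esterifies retinol for storage, averaged 71.2 TPM in morphants and 78.0 TPM in controls. It was not called. The RXR partner genes were led by *rxrb*, at 62.0, 61.3 and 77.9 TPM in morphants and 62.9, 66.3 and 91.3 TPM in controls (log2 fold change -0.12, limma, adjusted p = 0.252). *rxra* averaged 4.74 TPM in morphants and 5.14 TPM in controls, and *rxrg* stayed below 1 TPM. Of 9 tested coregulator genes, none was called by limma, and *ncoa3* was lower and *tbl1xr1* higher with an unadjusted p under 0.05. The retinol carrier *rbp4*, the retinol transporter gene *stra6* and *aldh1a1* were among 12 genes that did not pass the filter.

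A second list held 27 genes that respond to retinoic acid in vertebrate embryos, of which 25 were tested. Of these, 3 were called lower in morphants, *meis1*, *meis2* and *nr2f2*, which is 12.0% against 5.87% of all genes tested in that direction. The median log2 fold change of the 25 genes was -0.15, against -0.068 over all genes tested (-0.048 and 0.026 after median scaling). None was called higher, although *hoxd1* had an unadjusted p under 0.05 and was called after median scaling (log2 fold change 0.29, limma, adjusted p = 0.0482). The MEIS proteins are partners of HOX proteins on DNA. *meis1* was at 28.0, 23.3 and 26.2 TPM in morphants and at 37.0, 30.7 and 40.1 TPM in controls, so its groups did not overlap. Its log2 fold change was -0.46 (standard error 0.074, limma, adjusted p = 0.0302). *meis2* was at 27.9, 18.6 and 20.0 TPM in morphants and at 35.8, 24.4 and 30.8 TPM in controls, with a log2 fold change of -0.45 (limma, adjusted p = 0.0341). *meis3*, the most abundant member of this family here, was at 185, 185 and 169 TPM in morphants and at 183, 183 and 178 TPM in controls (log2 fold change -0.014, limma, adjusted p = 0.880).

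*nr2f2*, which encodes an orphan nuclear receptor, was at 30.2, 23.0 and 26.7 TPM in morphants and at 41.9, 28.5 and 35.1 TPM in controls (log2 fold change -0.39, limma, adjusted p = 0.0335). It lost the call after median scaling (-0.29, adjusted p = 0.0553 from limma). All 3 calls were lost with replicate 2 or replicate 3 left out, and that of *nr2f2* also with replicate 1 left out. The 14 *hox* genes of paralog groups 1 to 5, those nearest the 3′ ends, were measured at means above 5 TPM, and none was called by limma. Of them, 11 had a negative log2 fold change. *hoxa3*, *hoxc4* and *hoxb5* were lower and *hoxd1* was higher with an unadjusted p under 0.05. Their log2 fold changes ranged from -0.30 for *hoxb5* to 0.20 for *hoxa4*. The posterior factor genes *cdx1*, *cdx2* and *cdx4* had log2 fold changes of 0.059, 0.017 and 0.062 and were not called.

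**Figure D4:**
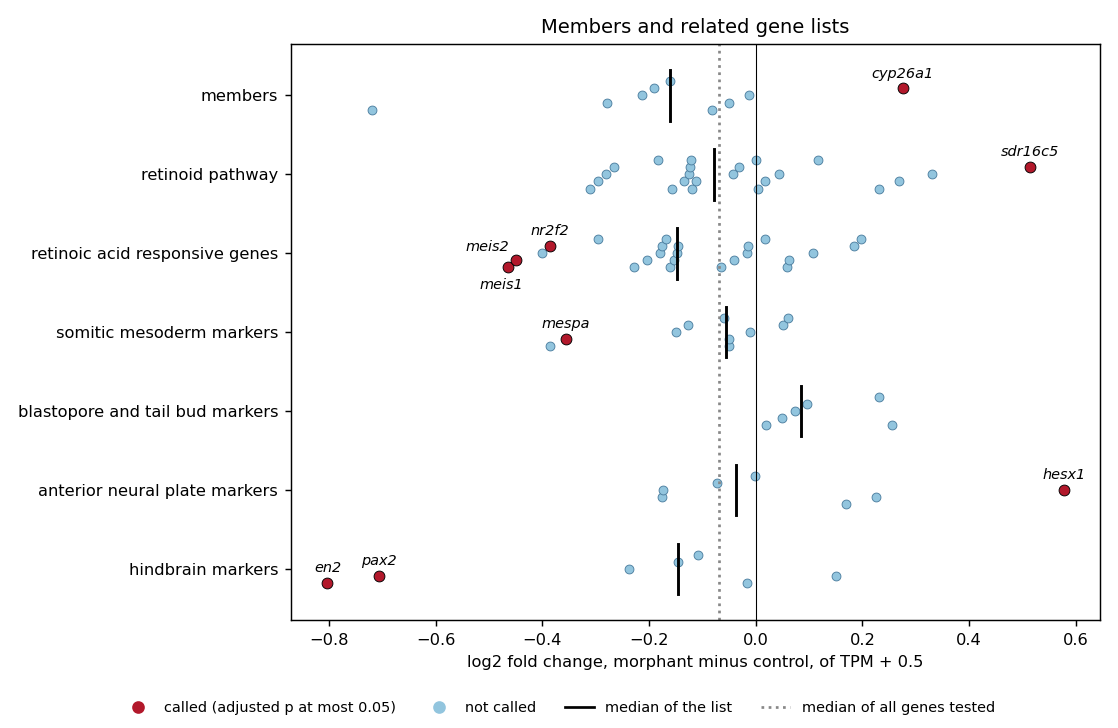
Log2 fold changes, morphant minus control, of the tested members and of the tested genes of 6 related lists. Each point is a gene, red where called and blue where not, the black bar is the median of the list, and the dotted line is the median of all genes tested at -0.068. Genes that are not reported here are counted in the medians but not drawn.

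Markers of the regions where these genes are transcribed were compared beside them. Of 6 tested blastopore and tail bud genes, all had a positive log2 fold change (median 0.085), while 62.3% of all genes tested had a negative one. The sets did not all share this sign. Of the 6 genes, 3 were higher in all 3 sets, against 17.6% of all genes tested, and *evx1* (0.020) was lower in sets 1 and 3. None was called by limma, while *wnt8a* (log2 fold change 0.25, limma, adjusted p = 0.0526) and *ventx2.1* (0.23, 0.0778) had an unadjusted p under 0.05. Both were called after median scaling, and *wnt8a* also with the filter at 5 TPM and with quantile normalization. The next smallest adjusted p was that of *fgf8* (log2 fold change 0.074, limma, adjusted p = 0.419). The summed TPM of the 7 such genes in the table was 357, 604 and 466 in morphants and 323, 487 and 425 in controls, higher in the morphant sample of each set, as *cyp26a1* was, and it was higher in each set also without *ventx2.1*, the most abundant of them. The summed TPM of 8 anterior neural plate genes was 513, 429 and 554 in morphants and 459.8, 404 and 539.6 in controls. It was higher in each set through *hesx1*, without which the sum was 390.0, 291 and 424 in morphants and 378, 309 and 455 in controls, lower in sets 2 and 3. The median log2 fold change of the 8 genes was -0.037, and 5 were negative. Of the 8, 2 were called, 1 higher and 1 lower. That is 25%, against 8.49% of all genes tested in either direction. The gene called higher was *hesx1* (log2 fold change 0.58, limma, adjusted p = 0.0159), and the other is not reported here. Of 7 hindbrain and midbrain-hindbrain boundary genes tested, *en2* and *pax2* were called lower (-0.80 and -0.71, limma, adjusted p = 0.0362 and 0.0256). That is 28.6%, against 5.87% of all genes tested that were called lower. The others of this list were not called, namely *mafb* (-0.11), *egr2* (-0.24), *hoxa2* (-0.016), *hoxb3* (-0.15) and *fgf3* (0.15). The call of *hesx1* held with any replicate left out. Those of *en2* and *pax2* were lost without replicate 3 (limma, adjusted p = 0.0948 and 0.0820), and that of *pax2* also without replicate 2 (0.0516). The 10 somitic mesoderm genes tested had a median of -0.055, close to the -0.068 of all genes tested. Of them, 1 was called lower, *mespa* (-0.36, limma, adjusted p = 0.0474). That is 10%, against 5.87% of all genes tested. *actc1*, a muscle actin gene and the most abundant of the list, was below its control in each set (-0.39, limma, adjusted p = 0.0532). It was called with the filter at 5 TPM, with quantile normalization, without replicate 1 and without LOC108645507 and LOC100335111, genes that took 4.89% of the TPM in the first morphant sample. The summed TPM of the list was 3039.6, 4386 and 3657 in morphants and 4109, 5156 and 4003 in controls, lower in each set, but without *actc1* it was higher in set 3. The call of *mespa* was lost whichever replicate was left out. The part of these regions in the values of *cyp26a1* and *aldh1a2* was not tested.

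The genes whose profile over the 6 samples was most like that of *cyp26a1* were *ino80b*, *c4h1orf53* and *gata2*. The measure was the root mean square difference of log2(TPM + 0.5), each gene centred on its mean, among 7862 other genes of at least 5 TPM. It was 0.041 for *ino80b*, 0.042 for *c4h1orf53* and 0.046 for *gata2*. *gata2*, a transcription factor gene of ventral ectoderm and blood, was at 373, 388 and 332 TPM in morphants and at 305, 314 and 249 TPM in controls. *ino80b* encodes a subunit of a chromatin remodelling complex and had a log2 fold change of 0.33. Both were called higher in morphants (limma, adjusted p = 0.0328 for *gata2* and 0.0305 for *ino80b*), and both calls, like that of *cyp26a1*, were lost without replicate 2 or replicate 3. *c4h1orf53* was not called (adjusted p = 0.0613 from limma). The likeness includes the differences between sets as well as the change in morphants. Similar fold changes and calls therefore follow in part from the way these genes were picked.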

How the data were processed

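Polyadenylated RNA of 6 samples of whole *X. tropicalis* embryos, the species named by the sample labels and the paper, was sequenced as Illumina short reads. Per the labels, cutadapt and Salmon were used. The authors aligned reads to the reference transcriptome, summed transcripts to genes and deposited TPM, which keep no read depth. The table was used as deposited, and 0 columns of sample values were left out. The authors' group means were not used.

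Values were transformed to log2(TPM + 0.5) and fitted by limma (version 3.58.1, R version 4.3.3), with the replicate number as a block and empirical Bayes variances that follow the mean. Genes entered when morphants or controls averaged 1 TPM or more. Benjamini-Hochberg adjusted p of at most 0.05 were called. The paper used Sleuth, which was not run. The labels number both groups 1 to 3, and the paper describes siblings and sets of embryos. Deviations of same-numbered samples from their group means correlated at 0.61 to 0.73 across genes. The fit was also run on data simulated from its own model, with planted changes larger than that of *cyp26a1*. That run checks the code and does not bear on the calls reported here.

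The 10 genes, the lists and the pairing were chosen with earlier results of these data known. Text names the 10 genes, *src*, called genes of each list or otherwise those with the smallest adjusted p, and the 3 genes most like a called member. Other genes were named after their values were seen. Lists are described by counts and medians without a set test. Alternatives were no block, pseudocounts of 0.1 and 1, no filter, a filter at 5 TPM, median scaling, quantile normalization, no trend, each replicate left out and, added after seeing the data, 2 abundant genes left out. No sequences or promoter motifs were examined, and some listed genes are counted but not reported here.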

Additional observations from a re-analysis of the deposited data

How the results depend on the processing

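The direction of *cyp26a1* held under all 12 alternatives and its call under 7 of them. Without the replicate block, 0 of the 10 genes were called higher, 0 genes were called in the retinoid pathway list and 0 lower in the list of responsive genes, and 1 gene was called in all. Without a filter on low TPM each of these counts was 0, and so was the count over all genes. The cause was not tested. The adjusted p of *cyp26a1* from limma was then 0.0863. Without the mean-variance trend 494 genes were called, 0 of the 10 genes were higher, 1 was lower (*rarb*, which passed the filter through its control mean alone), and 0 responsive genes were lower. With the filter at 5 TPM, 0 genes of the pathway list were called, since *sdr16c5* is below it. With median scaling, 569 genes were called higher and 415 lower, and 1 responsive gene, *hoxd1*, was called higher. With quantile normalization 384 were higher and 402 lower, against 350 and 786 as deposited. The median of all genes was 0.026 with median scaling and -0.068 as deposited.

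With each replicate left out, the number of genes called was 107 to 1186. The number of the 10 genes called higher was 0 to 1, that of responsive genes called lower 0 to 2, and that of the pathway list 0 in each case. The log2 fold change was -0.36 to 8.18e-05 for *aldh1a2*, -0.14 to 0.00050 for *crabp2* and -0.21 to 0.012 for *rara*. Median scaling turned the sign of *cyp26b1* (0.076), *crabp2* (0.050) and *rara* (0.019), and quantile normalization that of *cyp26b1* (0.097). LOC108645507 and LOC100335111 held 4.89% of the TPM in the first morphant sample, against 0.193 to 0.525% in the others. Without them *cyp26b1* was at 0.0083, and *cyp26a1* was called at 0.30 (limma, adjusted p = 0.0344). The pairing leaves 2 residual degrees of freedom for a gene.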
